A study of Mus musculus with 6 samples.

Results

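Immediate early and mechanical response genes are 37 mouse genes chosen by name, of 55421 genes counted in the deposited tables. They comprise transcription factors, mainly of the AP-1, EGR, NR4A and KLF families, a class named feedback and a few effectors, and all 37 names were found. A filter on low counts kept 35 of them among 18838 genes tested, and Egr4 and Npas4 did not pass it. RNA came from femurs of 12-week C57BL/6 mice labelled WT, with 3 libraries labelled control and 3 labelled phlebotomy (removal of blood), each made from a preparation enriched in osteocytes, which are the bone cells enclosed within the mineralised matrix. The labels give neither the volume of blood removed nor the time from bleeding to collection. Nor do they state whether each library is a different mouse, so errors describe the spread between these libraries, which may be technical. The numbers 1, 2 and 4 used below for the libraries of either group are those of the deposited columns. The group of a column was read from its first letter, P for phlebotomy and, as the remaining letter, N for control, and all comparisons rest on this reading.

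Immediate early genes are transcribed within minutes of a stimulus without new protein synthesis, because the factors that switch them on (SRF with its cofactors, and CREB) are already in the cell. Growth factors, calcium, stress and mechanical load all reach them, largely through MAP kinases. Their RNAs are short-lived, and several of their products shut the response down again. In bone, Fos, Egr1 and Ptgs2 are known as early responders to mechanical loading of osteocytes and osteoblasts, and the same genes also respond to handling and dissociation of tissue.

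The list was drawn up with the lower level of several of these genes in phlebotomy libraries already known. Differences between phlebotomy and control are therefore given as a description. Calls and p-values from fits over all genes are given too, but they are no independent test of the list. Libraries held 11219243 to 19015588 gene counts, and 3 counts corresponded to 0.158 to 0.267 CPM, the usual unit for counts scaled to the size of the library. Levels are given in CPM after scaling between libraries with the TMM method. Phlebotomy 2 stood apart, because it held 4288 counts in rows that name transgene or vector sequences against 380 to 640 in the other libraries, although it is labelled WT. Summaries of the members and of the related lists are therefore also given without it. Summed reads over 1183 olfactory and vomeronasal receptor genes, a measure of background, were 90.3 to 102 CPM in controls, and 186, 110 and 279.0 CPM in the phlebotomy libraries in the order 1, 2 and 4. The part of this background in the results was not tested.

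Several of the short sequences through which the response is known to start were more frequent in the promoters of these genes than in promoters in general. RefSeq windows on GRCm38.p6 were found for 30 members, and not for Fosl1, Egr1, Egr3, Klf10, Myc, Ier2 and Arc. In the 250 bases before any annotated start, searched on both strands, TGACG (the core of the cAMP response element, CRE) occurred in 18 of the 30 members (60%) and in 19.8% of 27025 genes. Its palindrome TGACGTCA, each match of which also holds TGACG, occurred in 3 members (10%) against 1.77%. The CArG box, the sequence that SRF binds, occurred in 3 members (10%) against 1.62%. Only exact matches were counted and bases further upstream were not searched. A count of 0 in this window, as in Fos, therefore does not mean that a gene lacks the box. The EGR site GCGNGGGCG occurred in 11 (36.7%) against 5.33%, and the GC box GGGCGG in 25 (83.3%) against 35.4%. The AP-1 site TGANTCA occurred in 1 (3.33%) against 7.82%, and TATAAA, searched on the coding strand, in 2 (6.67%) against 8.94%. Windows of members had a median GC content of 64.2% against 52.4% for all windows. This bears on the GC-rich motifs and on those that hold the bases CG, TGACG and TGACGTCA among them. A match is a description of the letters and says nothing about binding in these libraries.

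Stretches of 6 promoters are shown because they hold the CArG box or CRE sequences of genes described below, written 5′ to 3′ on the coding strand, from RefSeq windows on GRCm38.p6. Capitals mark the CArG box in Zfp36, Dusp5 and Egr2, TGACG (or CGTCA, the same site on the other strand) in Fos and Nr4a1, TATAAA in Fos, and TGACGTCA in Dusp1. Each stretch begins 150 bases before the start of transcription. The boxes lie 58 to 49 bases before it in Zfp36, 82 to 63 (2 adjoining boxes) in Dusp5 and 72 to 63 in Egr2. The shown start of Egr2 is 1 of 5 in RefSeq. The stretches of Egr2, Zfp36, Nr4a1 and Dusp1 lie inside their gene models, and those of Fos and Dusp5 lie before them. That of Dusp5 lies in an exon of the antisense gene AC137853.2. In Fos the nearest TGACG lies 66 to 62 and TATAAA 33 to 28 bases before the start. In Nr4a1 the sites shown lie 69 to 65 and 40 to 36 bases before it, and TGACGTCA in Dusp1 lies 143 to 136 bases before it.
Zfp36 promoter, chr7:28379259-28379378, minus strand: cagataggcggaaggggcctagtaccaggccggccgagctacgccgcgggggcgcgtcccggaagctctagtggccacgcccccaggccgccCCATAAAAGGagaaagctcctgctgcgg
Dusp5 promoter, chr19:53528995-53529104, plus strand: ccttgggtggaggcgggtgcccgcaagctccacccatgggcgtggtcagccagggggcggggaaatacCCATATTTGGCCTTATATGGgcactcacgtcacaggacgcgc
Egr2 promoter, chr10:67537416-67537565, plus strand: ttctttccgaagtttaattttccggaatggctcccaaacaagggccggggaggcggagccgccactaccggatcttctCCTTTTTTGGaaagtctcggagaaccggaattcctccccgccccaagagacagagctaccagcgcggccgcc
Fos promoter, chr12:85473740-85473889, plus strand: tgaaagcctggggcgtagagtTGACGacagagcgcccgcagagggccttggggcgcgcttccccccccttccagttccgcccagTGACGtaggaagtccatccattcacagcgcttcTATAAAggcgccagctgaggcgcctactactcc
Nr4a1 promoter, chr15:101266696-101266845, plus strand: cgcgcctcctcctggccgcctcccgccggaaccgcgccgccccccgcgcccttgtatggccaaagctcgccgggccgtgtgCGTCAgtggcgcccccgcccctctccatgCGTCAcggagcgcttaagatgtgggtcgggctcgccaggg
Dusp1 promoter, chr17:26508523-26508622, minus strand: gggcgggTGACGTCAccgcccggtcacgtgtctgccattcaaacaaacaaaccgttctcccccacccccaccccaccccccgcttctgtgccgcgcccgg

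Immediate early RNAs were abundant in control femurs. The 37 genes together held 1.47%, 1.31% and 1.35% of all gene counts in control 1, 2 and 4. Per kilobase of the longest annotated transcript, the scale on which levels of different genes are compared here, Ier3, a short stress-response transcript, was highest at 1198 ± 185 CPM per kb (SD, n = 3). Junb followed at 608 ± 14.3 and Ptgs2 at 462 ± 118 CPM per kb (SD, n = 3), and these lay above 99.6% and 99.5% of genes tested. Next came Fos at 379 ± 100 CPM per kb, Gadd45b at 376 ± 16.5, Egr1 at 317 ± 46.2 and Dusp1 at 307 ± 49.8 (SD, n = 3), and each of these overlapped the next in this order within their SD. In all, 25 of the 35 members tested had a control level above 90% of genes. At the low end, Homer1, a synaptic scaffold gene, was at 11.5 ± 3.24 and Nr4a3 at 1.16 ± 0.158 CPM per kb (SD, n = 3). Egr4 and Npas4, the latter a factor of active neurons, held 32 and 21 counts in the 6 libraries and lay at 0.0986 to 0.659 CPM and 0.0986 to 0.359 CPM in single libraries, where 3 counts corresponded to 0.158 to 0.267 CPM. The plot of level per length gives the order.

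**Figure D1:**
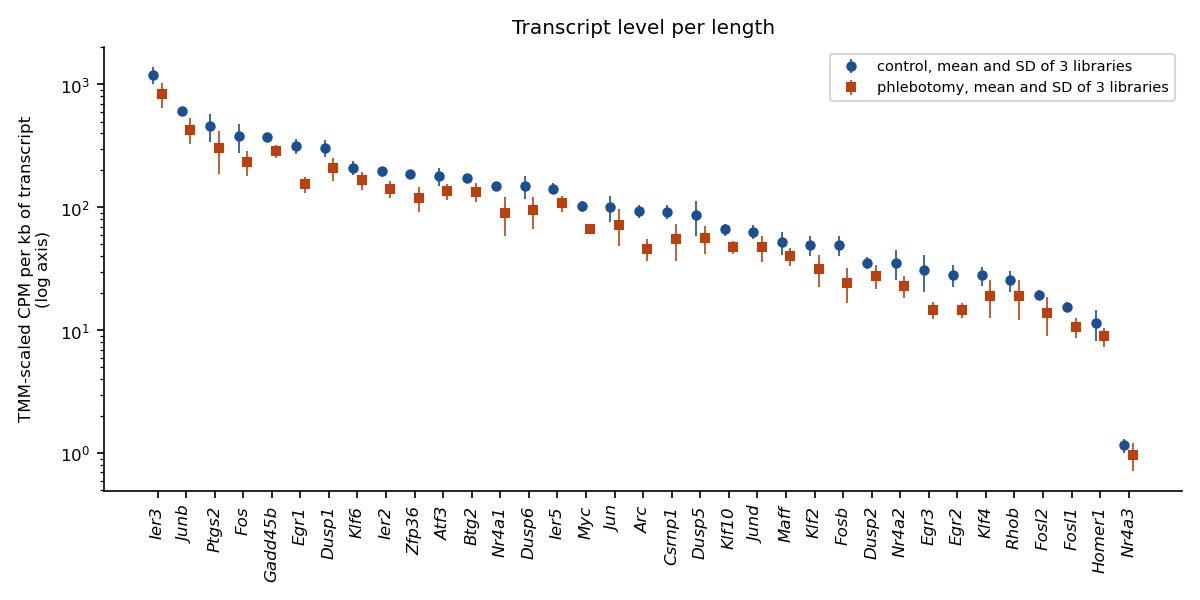
Mean level of the 35 members tested in TMM-scaled CPM per kilobase of transcript, on a log axis, in control (circles) and phlebotomy (squares) libraries, with bars for the SD of 3 libraries. Levels span from 1198 (Ier3) to 1.16 CPM per kb (Nr4a3) in controls, and each phlebotomy mean lies below its control mean.

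Members differed in how steady they were among the 3 controls. Over the 34 members at 20 CPM or more, the median coefficient of variation among controls was 15%, against 12.1% over 7076 genes at that level. Btg2 (1.48%), Junb (2.35%) and Nr4a1 (4.30%) varied least, and Egr3 (33.5%), Dusp5 (31.8%) and Homer1 (28.1%) most. Control 1 was the highest of the 6 libraries for 23 members, among them Ptgs2 and Dusp5, and control 4 for 11, among them Fos, Jun, Klf2 and Rhob. Egr3 was highest in control 2.

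In phlebotomy libraries the whole list sat lower. The 37 genes held 0.836%, 1.17% and 1.01% of gene counts in phlebotomy 1, 2 and 4, so that the groups did not overlap in this share. All 35 members tested had a negative log2 fold change, from -1.06 (Egr3) to -0.26 (Nr4a3), with a median of -0.54. Over all 18838 genes 50.2% were negative and the median was -0.0028, and over the 7076 genes at 20 CPM or more in controls 65.8% were negative with a median of -0.13. By edgeR's quasi-likelihood test over all genes, 0 members passed an adjusted p of 0.05, where the background was 0.0159% of genes in either direction. At an unadjusted p under 0.05 there were 27 members lower (background 9.42% lower and 7.01% higher). DESeq2 called 7 lower (background 1.09% lower, 0.414% higher and 1.51% in all), which were Fosb, Egr1, Egr2, Egr3, Myc, Zfp36 and Arc, and limma-voom called 0 (background 0%). Groups did not overlap for 18 members, all lower, where 11.2% of all genes were lower and 10.1% higher without overlap. With a trend over GC content and transcript length removed, the median of the members was -0.50 and all 35 were negative, against 56.1% of all genes. Since the list was chosen on this contrast, nothing is read from these counts.

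Phlebotomy 2 differed from the other phlebotomy libraries. Phlebotomy 1 lay below all controls for 33 of 35 members and phlebotomy 4 for 34, whereas phlebotomy 2 did so for 20 and lay inside the control range for 15. The corresponding shares of all genes were 33.3%, 31.6% and 25.4%. Against the control mean the median member stood at -0.79, -0.25 and -0.69 on the log2 scale in phlebotomy 1, 2 and 4. Without phlebotomy 2 the median log2 fold change of the members was -0.75, all 35 were negative (50.4% of all genes), and 11 were called lower by edgeR (background 2.99% lower, 1.75% higher and 4.74% in all), namely Fos, Fosb, Fosl2, Egr1, Egr2, Egr3, Nr4a1, Klf2, Csrnp1, Zfp36 and Arc. Without phlebotomy 1 the median was -0.40, and edgeR called 0 genes in all, with 1529 at an unadjusted p under 0.05.

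**Figure D2:**
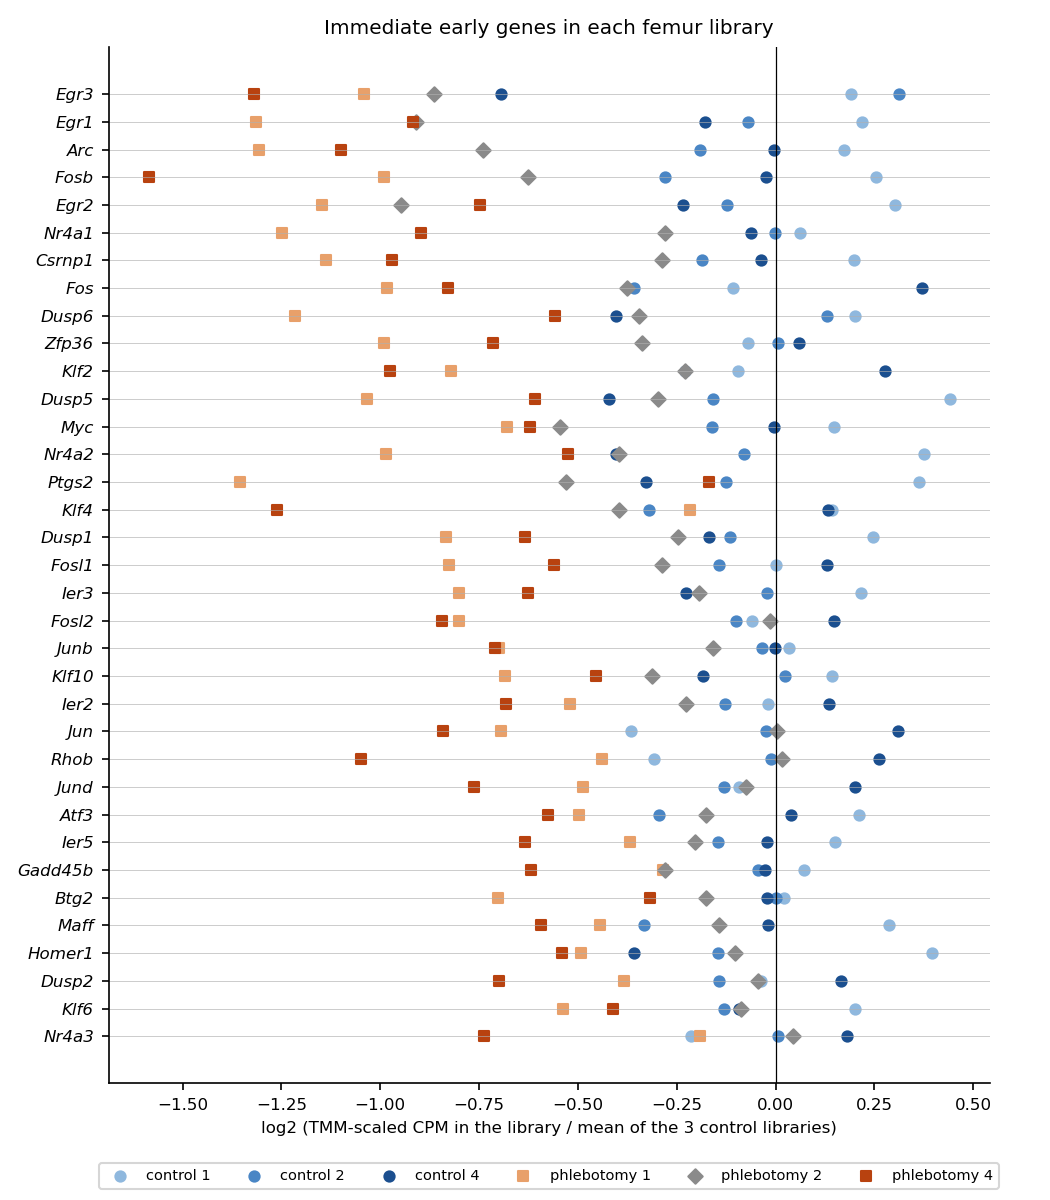
Level of each of the 35 members in each library, as log2 of its ratio to the mean of the 3 controls, ordered by log2 fold change. Circles are controls, squares phlebotomy 1 and 4, and grey diamonds phlebotomy 2, which lies inside the control range for 15 members and below it for 20, the EGR genes, Arc, Fosb and Myc among them.

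**Figure D3:**
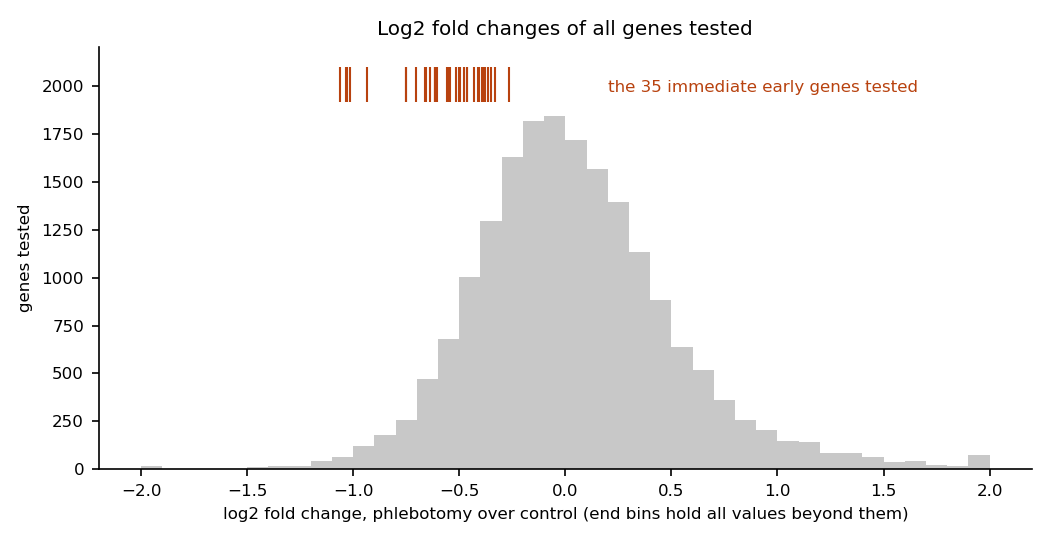
Histogram of the log2 fold changes (phlebotomy over control) of the 18838 genes tested, in bins of 0.1, with the 35 members drawn as ticks above it. The ticks run from -1.06 to -0.26 and all genes are centred near 0.

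EGR genes encode zinc finger factors of a single family, and they were the class with the lowest values after phlebotomy (class median -1.04, 3 of 3 lower without overlap, against 11.2% of all genes). Egr1 (ENSMUSG00000038418, chromosome 18, 34859823 to 34864984 on GRCm38) was at 1655, 1356 and 1258 CPM in control 1, 2 and 4 and at 572, 757 and 754 CPM in phlebotomy 1, 2 and 4. All phlebotomy libraries, phlebotomy 2 included, were thus far under the lowest control, with a log2 fold change of -1.04 ± 0.20 (SE). Egr2 (chromosome 10, 67535475 to 67542188), at 103, 76.7 and 71.0 CPM in controls, was at 37.7, 43.3 and 49.8 CPM in phlebotomy libraries (log2 fold change -0.94 ± 0.19 SE). For Egr3 (chromosome 14, 70077203 to 70082614) control 4 stood apart, with 138, 150.4 and 74.9 CPM in control 1, 2 and 4 against 58.9, 66.6 and 48.5 CPM in phlebotomy 1, 2 and 4. Its log2 fold change was -1.06 ± 0.23 (SE), and -1.34 without control 4. In phlebotomy 2 the EGR class was as low as in phlebotomy 4, with centred log2 medians of -0.38 and -0.39, against 0.25 to 0.76 in controls. Every other class lay higher in phlebotomy 2, from -0.06 to 0.13. These class positions are shown in the plot of share and classes. Egr4 is known mainly from neurons and was at the detection limit.

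**Figure D4:**
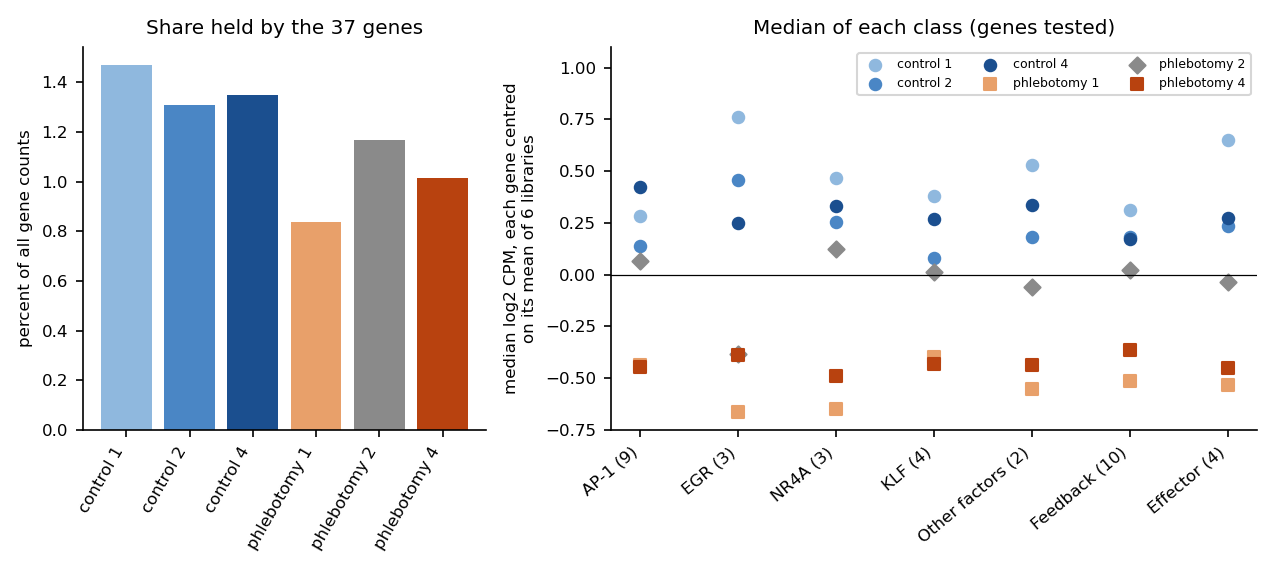
Left, percent of all gene counts held by the 37 genes in each library (1.31% to 1.47% in controls and 0.836% to 1.17% after phlebotomy). Right, median log2 CPM of the tested members of each class in each library, each gene centred on its mean over 6 libraries, with the number of genes in brackets; phlebotomy 2 (diamonds) lies with the other phlebotomy libraries for EGR genes and nearer the controls for the other classes.

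AP-1 is the dimer of FOS, JUN and related leucine zipper proteins that many stimuli activate, and its 9 members spread widely, from -1.01 (Fosb) to -0.38 (Maff), around a median of -0.50. Fos (ENSMUSG00000021250, chromosome 12, 85473890 to 85477273) was at 741, 624 and 1034 CPM in control 1, 2 and 4 and at 404, 617 and 450 CPM in phlebotomy 1, 2 and 4. Control 4 was high and phlebotomy 2 lay just under control 2, so the groups were apart by a narrow margin (log2 fold change -0.71 ± 0.22 SE, and -0.94 ± 0.24 without phlebotomy 2). Fosb (chromosome 7, 19302696 to 19310051) was at 223, 154 and 184 CPM in controls and at 93.9, 121 and 62.2 CPM in phlebotomy libraries. Phlebotomy 4 was its lowest library, and its log2 fold change was -1.01 ± 0.23 (SE). Junb (chromosome 8, 84974484 to 84978718) was nearly level among controls at 1126, 1074 and 1098 CPM and was at 677, 985 and 672 CPM in phlebotomy 1, 2 and 4 (log2 fold change -0.50 ± 0.20 SE). Of the other members of the class, all but Fosl1 overlapped between groups. Jun, at 248 to 396 CPM in controls, was at 319.9 CPM in phlebotomy 2, inside that range, and at 197 and 178 CPM in phlebotomy 1 and 4. Jund, Fosl2 and Maff likewise lay inside the control range in phlebotomy 2, as did Atf3, a stress-induced partner factor. Fosl1 did not overlap (26.2 to 31.6 against 16.3 to 23.6 CPM). Reads of Fosl1 could include reads of Ccdc85b, a gene on the opposite strand that shares 1163 exonic bases with it and held 2302 counts against 2187 for Fosl1. Junb shares 173 exonic bases with Prdx2 on the opposite strand, which held 27161 counts against 84490 for Junb. Antisense genes that overlap Jun, Jund, Csrnp1, Dusp5 and Zfp36 held 0 to 230 counts in all.

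NR4A genes encode orphan nuclear receptors that act without a known hormone and are controlled mainly by their abundance. Nr4a1 (ENSMUSG00000023034, chromosome 15, 101254269 to 101274795) was at 401, 384 and 368 CPM in control 1, 2 and 4 and at 162, 317 and 207 CPM in phlebotomy 1, 2 and 4. Controls were close together, and the phlebotomy libraries spread over a wide range below them (log2 fold change -0.75 ± 0.22 SE, and -1.10 ± 0.20 without phlebotomy 2). Nr4a2 overlapped between groups, with a lowest control of 95.6 CPM against 96.1 CPM in phlebotomy 2 (log2 fold change -0.61 ± 0.21 SE). Nr4a3 was scarce, at 5.72 to 7.53 CPM in controls and 3.98 to 6.84 CPM after phlebotomy, and its log2 fold change of -0.26 ± 0.26 (SE) was about the size of its error.

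KLF genes encode zinc finger factors, of which Klf2 is known for its response to fluid flow. Klf2 (ENSMUSG00000055148, chromosome 8, 72319033 to 72321656) was at 85.8, 78.1 and 111 CPM in control 1, 2 and 4 and at 51.9, 78.2 and 46.6 CPM in phlebotomy 1, 2 and 4. Phlebotomy 2 equalled control 2, while the other phlebotomy libraries were lower (log2 fold change -0.64 ± 0.21 SE, and -0.93 ± 0.20 without phlebotomy 2). Klf4 had another order of libraries, with 73.0 and 64.4 CPM in phlebotomy 1 and 2 and 35.4 CPM in phlebotomy 4, against 67.9 to 93.6 CPM in controls. Klf6 (-0.33 ± 0.19) had the smallest log2 fold change of the class and Klf10 (-0.48 ± 0.17), induced by TGF-beta, did not overlap between groups (errors are SE).

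Of the other factors, Myc (ENSMUSG00000022346, chromosome 15, 61985391 to 61990374), a driver of growth and ribosome production, was at 266, 215 and 239.6 CPM in control 1, 2 and 4. It was at 149.9, 165 and 156 CPM in phlebotomy 1, 2 and 4, the tightest phlebotomy values of any member tested, with a coefficient of variation of 4.72%. The log2 fold change was -0.61 ± 0.16 (SE). Csrnp1, a nuclear protein known as a target of AXIN1 signalling, was at 241 to 314 CPM in controls and at 124, 224 and 139.7 CPM in phlebotomy 1, 2 and 4 (log2 fold change -0.75 ± 0.22 SE, and -1.09 ± 0.20 without phlebotomy 2).

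The feedback class had a median log2 fold change of -0.49 over 10 members. Its DUSP genes encode phosphatases of MAP kinases, and Zfp36 and Btg2 act in the decay of RNAs. The class also holds the immediate early response genes Ier2, Ier3 and Ier5 and the stress sensor Gadd45b, to which neither function applies. Dusp1 (ENSMUSG00000024190, chromosome 17, 26505590 to 26562128), a nuclear MAP kinase phosphatase, was at 843, 656 and 632 CPM in control 1, 2 and 4 and at 398, 598 and 457 CPM in phlebotomy 1, 2 and 4. Groups did not overlap for Dusp1 (log2 fold change -0.55 ± 0.20 SE). Dusp6, which acts on ERK in the cytoplasm, overlapped through control 4. It was at 481, 458 and 317 CPM in control 1, 2 and 4 and at 180.4, 329.7 and 284 CPM in phlebotomy 1, 2 and 4 (log2 fold change -0.66 ± 0.23 SE). Dusp5, its nuclear counterpart, had the same order, at 289, 190.9 and 159 CPM in control 1, 2 and 4 and at 104, 173 and 139.7 CPM in phlebotomy 1, 2 and 4. Its log2 fold change was -0.61 ± 0.23 (SE), and -0.34 without control 1. Zfp36 (tristetraprolin, chromosome 7, 28376784 to 28380253), which targets AU-rich RNAs for decay, was steady among controls at 499, 526 and 546 CPM. It was at 264, 414 and 319 CPM in phlebotomy 1, 2 and 4 (log2 fold change -0.66 ± 0.19 SE). Ier3 (chromosome 17, 35821684 to 35822923) was at 1573, 1334 and 1157 CPM in controls and 778, 1184 and 878 CPM in phlebotomy libraries, and overlapped through phlebotomy 2 (log2 fold change -0.52 ± 0.21 SE). Gadd45b, a stress sensor, was at 507, 468 and 473 CPM in control 1, 2 and 4 and at 396, 397 and 314 CPM in phlebotomy 1, 2 and 4 (log2 fold change -0.39 ± 0.17 SE). Ier2, Ier5 and Btg2 also did not overlap, with log2 fold changes of -0.46, -0.39 and -0.38, and Dusp2 overlapped at -0.35.

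Among effectors, Arc stood with the EGR genes. Arc (ENSMUSG00000022602, chromosome 15, 74669083 to 74672570), best known as a cytoskeletal protein of synapses, was at 321, 249 and 284 CPM in control 1, 2 and 4 and at 115, 171 and 133 CPM in phlebotomy 1, 2 and 4. All phlebotomy libraries were well under the lowest control (log2 fold change -1.03 ± 0.19 SE). Ptgs2 (ENSMUSG00000032487, chromosome 1, 150100031 to 150108227), which encodes COX-2, the inducible enzyme of prostaglandin synthesis, was at 2647, 1885 and 1638 CPM in control 1, 2 and 4. It was at 804, 1424 and 1832 CPM in phlebotomy 1, 2 and 4, so that phlebotomy 4 lay inside the control range and phlebotomy 1 was far below it. Of the 35 members tested, Ptgs2 had the largest SE of its log2 fold change (-0.60 ± 0.28), which was -0.31 without phlebotomy 1 and -0.89 without phlebotomy 4. Rhob was at 48.5 to 72.0 CPM in controls and at 44.3, 60.7 and 29.0 CPM in phlebotomy 1, 2 and 4. Homer1 had a log2 fold change of -0.36 ± 0.21 (SE), and of -0.13 without control 1.

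Most genes of the steps before and after these genes also had negative log2 fold changes. Over all genes tested 50.2% were negative. Among genes at 20 CPM or more in controls 65.8% were negative, with a median of -0.13. These lists, and those of markers, glucocorticoid-responsive and heat shock genes below, were also chosen with earlier results of these data known. Their counts are therefore a description and no independent test. By edgeR over all genes 0 of the genes in the 7 lists that follow were called (background 0.0159%). DESeq2 called lower 2 inducing factors, 2 mechanosensors, 3 YAP and TAZ genes, 2 delayed early genes and 1 ERK feedback gene, and 0 upstream kinases and SRF targets (background 1.09% lower). Without phlebotomy 2, edgeR called lower 1 kinase, 5 inducing factors, 2 mechanosensors, 3 YAP and TAZ genes, 1 SRF target, 6 delayed early genes and 3 ERK feedback genes (background 2.99% lower). The medians of the 7 lists then ran from -0.64 to -0.27. Counts at an unadjusted p under 0.05 below are of lower genes unless stated, where the background was 9.42% lower and 7.01% higher. Of 16 upstream kinases 13 were negative (median -0.19, 3 at an unadjusted p under 0.05), with Camk2d at -0.63, Mapk7 (ERK5) at -0.54 and Map3k1 at -0.38. Of 18 factors that switch immediate early genes on, or their cofactors, 17 were negative (median -0.52, 10 at an unadjusted p under 0.05). The smallest p belonged to Tcf7l2 (-0.63), Ep300 (-0.58) and Crebbp (-0.60), the latter pair being acetyltransferases that CREB recruits, and Creb1 itself was at 0.13. Tcf7l2 was named in this list but is neither an SRF cofactor nor a CREB factor. In this list 9 did not overlap, all lower. The corresponding share of all genes lower without overlap was 11.2%.

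Of 17 mechanosensors and load-signalling genes of bone cells 14 were negative (median -0.45, 8 at an unadjusted p under 0.05). Piezo1, a stretch-gated channel, had a mean level of 207 ± 44.3 CPM over controls, and of 110.3 ± 23.6 CPM over phlebotomy libraries (SD, n = 3), without overlap. Its log2 fold change was -0.90 ± 0.20 (SE). Pkd1 (-0.68) and Cacna2d1 (-0.64) came next by p. In this list 3 genes were positive, with a highest value of 0.63. Piezo2, 1 of them, was at 0.60, on mean levels of 3.88 CPM in controls and 5.85 CPM after phlebotomy. Without overlap 6 mechanosensors were lower and 1 higher, where the shares of all genes were 11.2% and 10.1%. YAP and TAZ targets and regulators were negative in 11 of 12 (median -0.56, 7 at an unadjusted p under 0.05), with Arhgef17 at -1.15, Amotl2 at -0.95 and Crim1 at -0.60. The positive gene was Ankrd1, at 1.34 ± 0.74 (SE), on levels of 0 to 0.710 CPM in controls and 0.261 to 1.58 CPM after phlebotomy, with overlap. SRF and MRTF targets of the cytoskeleton were negative in 13 of 15 (median -0.28, 4 at an unadjusted p under 0.05), Myh9 (-0.57), Flna (-0.53) and Vcl (-0.45) leading. Delayed early and further primary response genes were negative in 30 of 33 (median -0.46, 15 at an unadjusted p under 0.05), with Trib1 at -0.73, Phlda1 at -0.70 and Bhlhe40 at -0.66. ERK feedback genes were negative in 10 of 12 (median -0.49, 7 lower and 1 higher at an unadjusted p under 0.05). The ERK-induced factor Etv5 was at -0.88 and the inhibitors Spry1 at -0.74 and Spry4 at -0.66. The highest value of this list was 0.98, larger in size than its lowest. Without overlap 5 of its genes were lower and 1 higher (11.2% and 10.1% of all genes). In phlebotomy 2 the centred log2 medians of SRF targets, delayed early genes, YAP targets, inducing factors and ERK feedback genes lay between the other phlebotomy libraries and the controls. Those of mechanosensors (-0.00018) and upstream kinases (0.045) lay inside the control range, above control 4 (-0.0080 and 0.036).

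Markers of bone-forming cells also had mostly negative values, and edgeR over all 6 libraries called 0 markers of any cell type (background 0.0159%). Negative values were held by 50.2% of all genes tested and by 65.8% of genes at 20 CPM or more in controls. DESeq2 called 1 marker lower in each of the osteocyte, osteoblast, smooth muscle, reticular stroma, B cell and chondrocyte lists (background 1.09%) and 2 erythroid markers higher (background 0.414%). Osteoblast markers were negative in 11 of 11 (median -0.61), with summed levels of 68101 to 103403 CPM in controls and 38752, 69922 and 51620 CPM in phlebotomy 1, 2 and 4. Osteocyte markers were negative in 10 of 12 (median -0.61), with sums of 23779 to 50108 CPM in controls and 14397, 25663 and 25821 CPM in phlebotomy 1, 2 and 4. Osteoclast markers were positive in 8 of 8 (median 0.44), at 1052 to 2301 CPM in controls and 2717, 1130 and 3204 CPM in phlebotomy 1, 2 and 4. Endothelial markers were negative in 10 of 12 (median -0.18; 628 to 748 CPM in controls and 608 to 767 CPM after phlebotomy), and neutrophil markers in 4 of 10 (median 0.087; 18962 to 45608 CPM against 25824 to 41167 CPM). Monocyte and macrophage markers were negative in 2 of 10 (median 0.27), erythroid markers in 4 of 12 (median 0.18), B cell markers in 7 of 8 (median -0.34) and megakaryocyte markers in 7 of 8 (median -0.26). Smooth muscle and pericyte markers were negative in 6 of 8 (median -0.11), reticular stroma markers in 7 of 8 (median -0.18), chondrocyte markers in 6 of 6 (median -0.79) and adipocyte markers in 4 of 6 (median -0.23). Without phlebotomy 2 several of these medians were further from 0. The osteoblast median was then -0.96 with 7 of 11 called lower by edgeR, and the osteocyte median -0.65 with 2 called lower (background 2.99% lower). The osteoclast median was 0.75 with 2 of 8 called higher, and the erythroid median 0.21 with 2 of 12 called higher (background 1.75% higher). Monocyte and macrophage markers had a median of 0.35 with 1 of 10 called higher. Medians were -0.80 for chondrocyte, -0.16 for reticular stroma and -0.19 for adipocyte markers, with 1, 1 and 0 called lower. The endothelial median was -0.49, that of megakaryocyte markers -0.73, of B cell markers -0.54 and of smooth muscle and pericyte markers -0.21. In these lists 1, 0, 1 and 1 markers were called lower. The neutrophil median turned to -0.13 with 6 of 10 negative, and to -0.12 with the GC and length trend removed. Each osteoblast and osteocyte marker was detected, the lowest mean in controls being 13.3 and 2.06 CPM. In phlebotomy 2 the osteoblast markers had a centred log2 median of 0.33, inside the control range of 0.071 to 0.70. The osteocyte markers had one of -0.093, below the control range of 0.21 to 0.55, and the members one of 0.023, below the control range of 0.19 to 0.43. In bulk libraries fewer cells of a type and less RNA per cell cannot be told apart, and the part of cell composition in the levels of the immediate early genes was not tested.

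**Figure D5:**
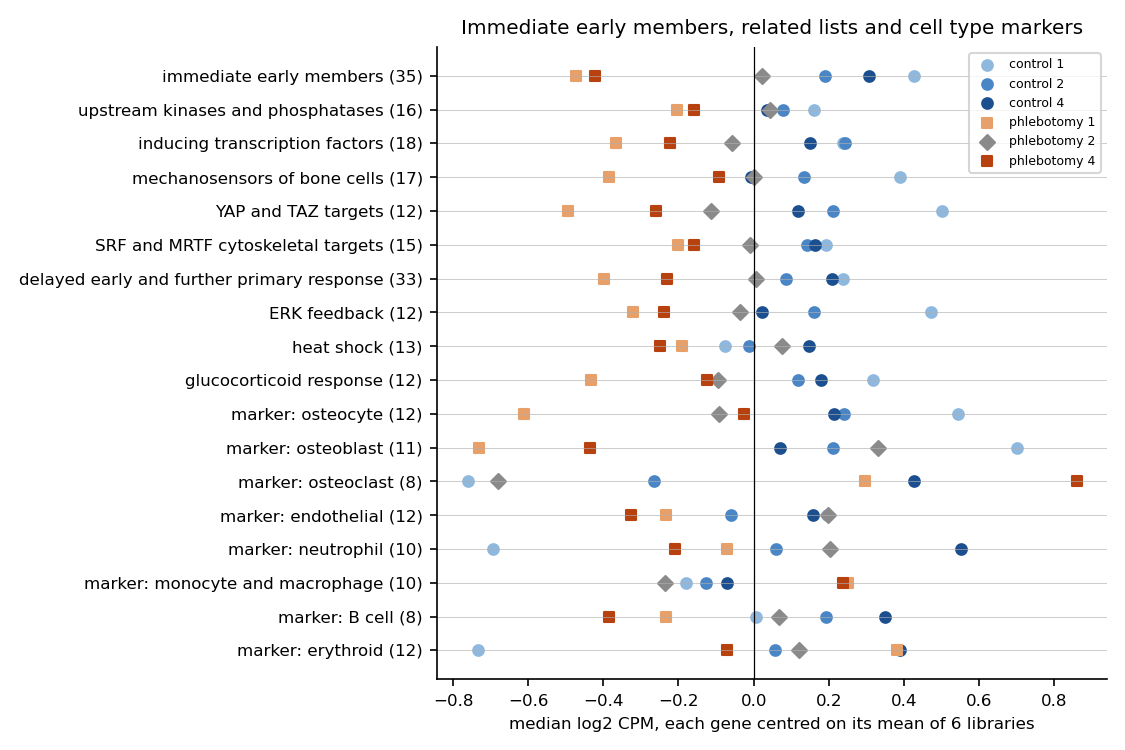
Median log2 CPM of the members (top), of related lists and of cell type markers in each library, each gene centred on its mean over 6 libraries, with the number of genes tested in brackets. Phlebotomy 1 and 4 lie below all controls for the members at -0.47 and -0.42, and phlebotomy 2 lies at 0.023, between them and the lowest control at 0.19.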

How the data were processed

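The authors deposited raw gene counts for 6 femur libraries, a filtered copy of the same counts (28533 rows, 0 counts differing) and a signal table that, per the file's name, holds CPM values adjusted by the authors with TMM. The submitters' processing notes name STAR in versions 2.7.3a and 2.5.2a, limma, edgeR and DESeq2, and 2 genome builds, mm10 and GRCm38.p3, without their roles. Nextera XT, the library kit per the labels' protocols, keeps no strand information. The counting program is not given in the sources used here. Another 19 rows, for transgenes and vectors, took 0.00278% to 0.0284% of a library and were left out before scaling and testing.

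Counts were filtered with filterByExpr (minimum count 10), scaled with TMM and tested with edgeR 4.0.16 (quasi-likelihood, robust, no covariates) in R 4.3.3, with Benjamini-Hochberg adjustment over all genes and a threshold of 0.05. The standard error (SE) of a log2 fold change was approximated from the F statistic. The fit was tested on simulated data. DESeq2 1.42.0, limma 3.58.1 (voom, and trend on the deposited signal with pseudocounts of 0.5 and 1), other scalings and filters, a replicate block, removal of a GC and length trend, and leaving out each library were alternatives. Gene models, transcript lengths and coordinates are those of GENCODE M21 (GRCm38), in which 99.7% of gene IDs were found. Plots were made in Python 3.11.15 (matplotlib 3.10.9).

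The members and the 9 pathway and 15 marker lists were chosen with earlier results of these data known. Values in every library are given for the 12 members with the largest absolute log2 fold change, any above -0.10 (0 members), the 5 with the highest level per kilobase in controls and the first of each class. Lists name up to 3 genes by smallest p, and genes beside them were chosen after their values were seen. Counting intervals are not given because libraries differ by more than counting error. The replicate numbers shared by the groups were treated as column numbers only.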

Additional observations from a re-analysis of the deposited data

Results flagged for a closer look

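Phlebotomy 2, labelled WT, held 4288 counts in the rows that name transgene or vector sequences, against 380 to 640 in each of the other 5 libraries. These rows are outside the gene measurements, and the level lies above that of all control libraries. Without the row of 1 GNAS construct, at 372 to 619 counts in all 6 libraries, phlebotomy 2 held 3728 counts and the others 2 to 21.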

How the results depend on the processing

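All 35 members tested kept a negative log2 fold change in each of the 17 alternatives, and the median of the members ran from -0.63 to -0.46 over the 11 alternatives of scaling, filter, model, block or trend. With a library left out the median ran from -0.75 (without phlebotomy 2) to -0.40 (without phlebotomy 1), and the count of members lower was 35 throughout. The count of genes called over all genes was 3 and less stable. It was 577 with no low-count filter (where the median of all genes shifted to 0.18), 20 over the authors' filtered genes, 284 with DESeq2 and 0 with limma-voom (3020 genes at an unadjusted p under 0.05), and 0 to 963 with a library left out. The value of 0 came without phlebotomy 1 and that of 963 without phlebotomy 2, while it was 14 without control 2 and 7 without control 4, and the cause was not tested. Members called lower numbered 11 with no low-count filter, where 411 of all 46504 genes were called lower. There were 3 over the authors' filtered genes, where 14 of 28526 genes were called lower. DESeq2 called 7 (background 1.09% lower). There was 1 (Egr3) without control 4, where 7 genes were called in either direction, and 11 without phlebotomy 2 (background 2.99% lower). With the replicate block of column numbers 3 genes were called, 0 members were called and the median of the members was -0.55. Same-numbered libraries had correlations of deviations of -0.10, -0.11 and -0.054, so no shared deviation was seen. With 3 libraries per group these values cannot tell whether libraries of the same number were paired. Depth limits only Egr4, Npas4 and Nr4a3.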

Other observations

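Glucocorticoid-responsive genes, a further group that reacts to stress of the animal, were negative in 12 of 12 (median log2 fold change -0.47, 5 lower at an unadjusted p under 0.05, where the background was 9.42% lower), with 0 called by edgeR over all genes (background 0.0159%), 0 by DESeq2 and 0 by limma-voom. Errfi1, an inhibitor of the EGF receptor, stood at -0.67, Klf9 at -0.45 and the kinase Sgk1 at -0.57, none of which overlapped between groups. In this list 7 of 12 genes were lower without overlap, where the share of all genes was 11.2%. Negative log2 fold changes were held by 50.2% of all genes tested and by 65.8% of genes at 20 CPM or more in controls. Errfi1 and Sgk1 also belong to the list of delayed early genes. Without phlebotomy 2 the median of the glucocorticoid-responsive genes was -0.56 and edgeR called 1 gene lower (background 2.99% lower). Heat shock genes were negative in 7 of 13 with a median of -0.0031, which was -0.29 without phlebotomy 2, with 8 of 13 negative and 1 called lower. In that list the co-chaperone Bag3 (-0.65) and the heat shock factor Hsf1 (-0.52) had the smallest p, and Hspe1, a mitochondrial chaperonin, stood at 0.35. Over the heat shock list edgeR and limma-voom called 0 members, 2 were lower at an unadjusted p under 0.05 (background 9.42%), and DESeq2 called 1 lower (background 1.09%).

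Markers of tissues beside bone and marrow were scarce. Of 10 skeletal muscle markers 5 were tested (1 negative, median 0.068, and 0.30 without phlebotomy 2) and these summed to 5.42 to 9.56 CPM in controls and 9.06 to 11.8 CPM after phlebotomy, and 6 of 8 neuronal and glial markers (3 negative, median -0.081, and -0.17 without phlebotomy 2) to 31.9 to 35.6 CPM and 28.9 to 37.9 CPM. The highest neuronal or glial log2 fold change was 1.65. By edgeR 1 marker of that list and 2 of muscle were higher at an unadjusted p under 0.05 (background 7.01% higher). Without phlebotomy 2 edgeR called 1 neuronal or glial marker higher and 0 of muscle (background 1.75% higher). Arc, Egr3 and Homer1, members that are best known from neurons, lay at 285, 121 and 65.8 CPM on average in controls.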
